A study of Mus musculus with 18 samples.

Results

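The regions described here are promoter regions at which both SMC1A and CTCF were called in every CUT&RUN peak list from mouse DP thymocytes. They were selected on the presence of peaks and the distance to a start. Peaks of 4 SMC1A lists and 3 CTCF lists on chromosomes 1 to 19 were joined if they shared 1 bp or more. A merged region was kept if it held a peak of all 7 lists and its edge lay within 1000 bp of the transcription start of a protein-coding gene. This gave 4092 regions of 65437 merged regions, out of 9841 that held a peak of every list anywhere. The 4092 regions lay at starts of 4624 genes, 28.1% of the 16456 genes whose start and strand were known (RefSeq, GRCm38.p6, the assembly that mm10 represents).

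The study profiled sorted DP thymocytes, primary cells from the thymus, of WT mice and of mice with an induced knockout of Satb1. Mice of both genotypes carried the label tamoxifen, the drug used to induce the deletion, so the groups share that treatment. The lists analysed were 2 WT and 2 Satb1 KO libraries for SMC1A, and 1 WT and 2 Satb1 KO libraries for CTCF. Strain, age, sex, the Cre driver and the number of mice per library are not stated by the labels, and the IgG, input and H3K27ac libraries and a second WT CTCF list were not analysed here. Peak lists hold no expression, so neither the DP identity of the cells nor the loss of Satb1 could be checked from them.

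SMC1A is a subunit of cohesin, the ring complex that holds chromatin in loops, and CTCF is a zinc finger protein that binds a long DNA motif and halts moving cohesin. Cohesin is loaded and found at active promoters as well as at CTCF sites, and many promoters of broadly expressed genes carry CpG islands. DP thymocytes are the stage at which the T cell receptor alpha chain is rearranged and cells are selected, and SATB1 is an abundant chromatin organiser at that stage. In CUT&RUN an antibody brings a nuclease to the bound protein, and the DNA released around it is sequenced.

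The sequences below come from RefSeq promoter windows (GRCm38.p6), which run from 250 bases before to 50 after a start. They are shown because a set chosen for CTCF peaks could be read as a set of CTCF motif sites, and most of its promoters are not of that kind in these windows. The first 6 are the regions of highest rank with exactly 1 match of the CTCF core, here CCA, any 2 bases, AG, any 2 bases and then GGC. Capitals mark that match, and each sequence is written 5′ to 3′ on the strand of its gene.
Calr: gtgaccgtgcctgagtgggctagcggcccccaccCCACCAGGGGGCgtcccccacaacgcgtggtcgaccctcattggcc
Ndufa6: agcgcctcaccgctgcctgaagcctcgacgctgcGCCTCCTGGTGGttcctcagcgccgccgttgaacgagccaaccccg
Crocc: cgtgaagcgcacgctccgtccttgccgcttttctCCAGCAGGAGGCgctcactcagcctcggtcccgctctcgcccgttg
Sptlc2: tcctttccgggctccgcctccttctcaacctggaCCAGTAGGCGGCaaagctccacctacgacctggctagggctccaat
Mgat1: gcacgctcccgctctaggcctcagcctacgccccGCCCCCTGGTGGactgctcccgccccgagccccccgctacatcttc
Myh9: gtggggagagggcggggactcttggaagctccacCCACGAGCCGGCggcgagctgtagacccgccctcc
The next 2 belong to the strongest regions of the whole set, and their windows hold no match even of a looser core (CC, any 3 bases, AG, any 2 bases, GGC), so they carry no capitals.
Dnpep: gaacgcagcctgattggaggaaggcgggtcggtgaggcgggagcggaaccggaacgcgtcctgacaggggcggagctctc
Rrp9: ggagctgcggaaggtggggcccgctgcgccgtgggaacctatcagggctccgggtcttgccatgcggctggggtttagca

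The Calr sequence (calreticulin, a chaperone of the endoplasmic reticulum) is chr8:84847073-84847152 on the minus strand, and the Ndufa6 sequence (a subunit of respiratory complex I) is chr15:82354396-82354475 on the minus strand. The Crocc sequence (rootletin, of the ciliary rootlet) is chr4:141060698-141060777, minus strand, and the Sptlc2 sequence (a subunit of serine palmitoyltransferase) is chr12:87388510-87388589, minus strand. Mgat1 (an enzyme of N-glycan synthesis) is shown over chr11:49243942-49244021 on the plus strand, and Myh9 (a non-muscle myosin heavy chain) over chr15:77842176-77842244 on the minus strand. The core lay on the strand of the gene in Calr, Crocc, Sptlc2 and Myh9 and on the other strand in Ndufa6 and Mgat1. Dnpep (aspartyl aminopeptidase) is shown over chr1:75317638-75317717, minus strand, and Rrp9 (a component of the U3 particle that processes ribosomal RNA) over chr9:106477229-106477308, plus strand. All 8 stretches lie upstream of the start in the RefSeq table.

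The lists held 19466 to 27459 peaks for SMC1A and 22351 to 54222 for CTCF on chromosomes 1 to 19. The number of reads over each summit could be solved from the deposited fold and p-value, and its median over the 4092 regions was 16 to 27 in the SMC1A libraries and 32 to 95 in the CTCF libraries. Satb1 KO CTCF replicate 2 stood apart from the other libraries. Its median fold over the regions was 5.02, against 22.9 in Satb1 KO CTCF replicate 1 and 14.0 in the WT CTCF library, and its median local background was 5.12 reads against 2.84 and 1.60. It also set the size of the group. Of 1218 merged regions at starts that held 6 of the 7 lists, 758 lacked a peak of this library alone, and 183 lacked Satb1 KO SMC1A replicate 2 alone. Median CTCF percentiles of gene and start groups and counts that order the antibodies are therefore also given without it, over the same 4092 regions. Without this list in the rule, 4850 regions would qualify.

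Presence in every list was the selection rule and is given without a test. Of 11680 merged regions at protein-coding starts, 35% held all 7 lists, as did 15.0% of all merged regions. A region held by a single list made up 24% of the regions at starts and 45.3% of all merged regions. Just inside the 1000 bp limit lay the regions of 1700122O11Rik (998 bp from the start), Cpt1a (994 bp, a carnitine palmitoyltransferase) and Ube2g1 (988 bp, a ubiquitin conjugating enzyme). Just outside it lay Zfp91 (1008 bp), Atpif1 (1012 bp) and Prss56 (1015 bp). Most regions were not near that limit, since 3862 of the 4092 (94.4%) covered the start itself.

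The promoter regions were higher in rank and broader than the other 5749 regions that also held every list. Each library's folds, which are the authors' own values per peak, were turned into percentiles among the same 9841 regions, so that libraries of different depth could be set side by side. A region took its highest peak in each list, so a wide region with several peaks had more chances of a high fold. The part of this in the rank difference was not tested. In the WT SMC1A libraries the median percentile was 63.1 and 61.1 for promoter regions and 41.3 and 42.7 for the others. In the Satb1 KO SMC1A libraries it was 60.2 and 58.4 against 43.7 and 44.4. In the WT CTCF library it was 60.4 against 43.1, and in Satb1 KO CTCF replicate 1 it was 58.3 against 45.3. Satb1 KO CTCF replicate 2 went the other way, at 47.3 against 51.8. The mean difference was 13.8 percentile points (SD 8.53, n = 7 libraries, higher in 6 of 7; exact two-sided sign-flip permutation p = 0.0312, where the smallest possible is 0.0156). It was 16.8 without Satb1 KO CTCF replicate 2 (exact permutation p = 0.0312). Leaving out any other single library gave an exact permutation p of 0.0625, where 6 libraries allow 0.0312 at best, with the difference at 12.47 to 13.9. In the 4 SMC1A libraries alone it was 17.7 (SD 3.27, higher in 4 of 4; exact permutation p = 0.125, the smallest that 4 libraries allow).

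Peak width followed the same order by library. Median SMC1A peak widths at promoter regions were 569, 569, 669.5 and 533 bp in WT 1, WT 2, KO 1 and KO 2, and 440, 447, 524 and 431 bp at the other regions. CTCF peaks at promoter regions had medians of 953 bp in WT and 1280 bp in KO 1, against 707 and 966 bp, and in KO 2 of 518 bp against 536 bp. The mean log2 ratio of the medians was 0.31 (SD 0.16, n = 7, higher in 6 of 7; exact sign-flip permutation p = 0.0312), and 0.37 without Satb1 KO CTCF replicate 2. Leaving out any of the other libraries gave an exact permutation p of 0.0625. Widths were not adjusted for depth. The rule also measured distance from a region's edge, so a wider region met it more easily, and the p-values do not allow for that. The part of either in the difference was not tested.

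**Figure D1:**
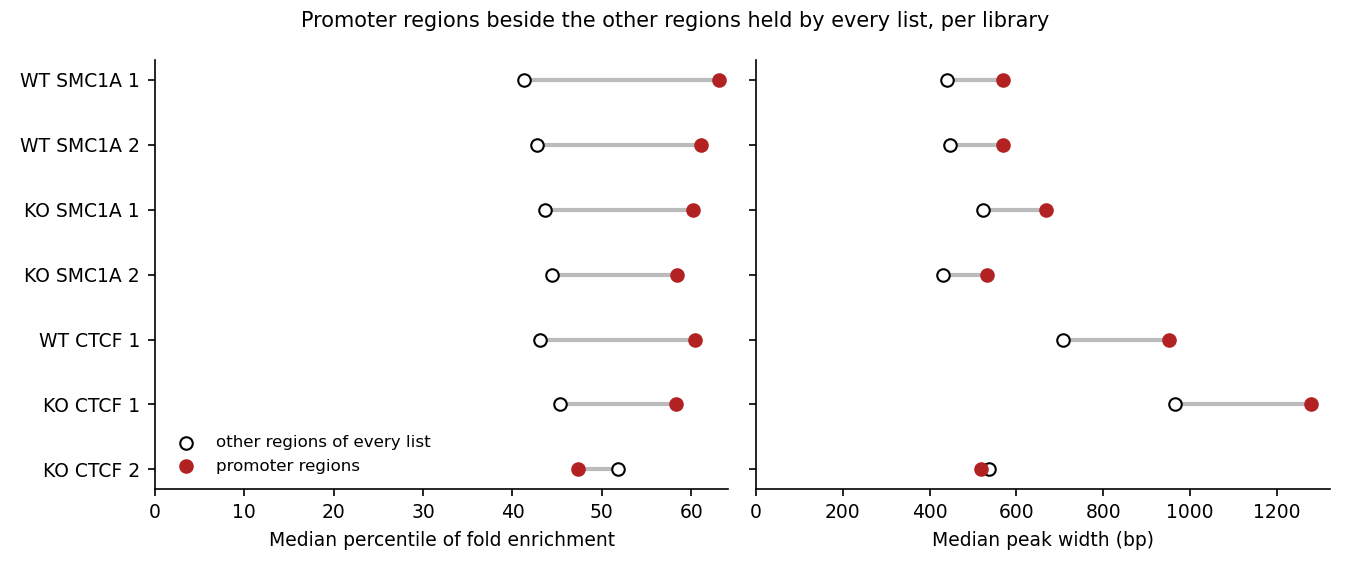
Median percentile of fold enrichment (left) and median peak width in bp (right) in each of the 7 libraries, for the 4092 promoter regions (filled) and the 5749 other regions held by every list (open). The filled point lies to the right in 6 of 7 libraries in both panels, and Satb1 KO CTCF 2 shows the opposite order.

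Summits lay just upstream of the start in every library. Each region was oriented by its nearest start, and the summit of the highest peak of each list was placed relative to it, with negative values upstream. The median position was -75 and -78 bp in the WT SMC1A libraries and -76 and -72 bp in the KO SMC1A libraries. It was -77 bp in WT CTCF, -80 bp in KO CTCF 1 and -104 bp in KO CTCF 2. Between 68.8% and 74.9% of summits were upstream, and 41.1% to 45.9% lay within 100 bp of the start in 6 of the libraries, with 32.1% in KO CTCF 2. Within a region, the 7 summits spanned a median of 168 bp (quartiles 108 and 283, highest 5610), the 4 SMC1A summits alone 114 bp and the 3 CTCF summits 100 bp. Merged regions were wider than that, with a median of 1425 bp and a range of 336 to 7964 bp.

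**Figure D2:**
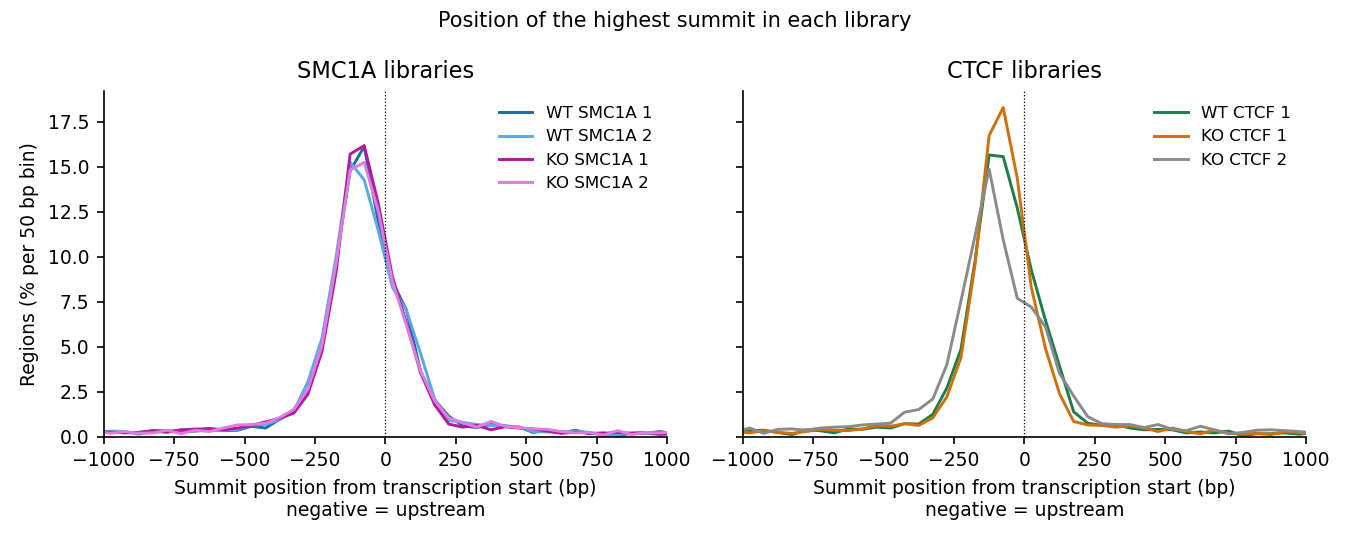
Distance of the summit of the highest peak from the nearest transcription start, in bp with upstream negative, as the percent of the 4092 regions in each 50 bp bin, for the 4 SMC1A libraries (left) and the 3 CTCF libraries (right). All libraries peak between the start and about 150 bp upstream, and Satb1 KO CTCF 2 is the broadest and the furthest upstream (median -104 bp).

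Starts of neighbouring genes on opposite strands were frequent in the set. Head-to-head pairs share a promoter from which transcription runs both ways, but the order of the starts was not checked. The regions counted here can therefore include other arrangements. Of the 4092 regions, 629 (15.4%) lay at starts of 2 or more genes and 608 (14.9%) at starts of 2 genes on opposite strands. Of the genes with a region, 24.1% had an opposite-strand start within 1000 bp, against 4.39% of the other genes with a known start and 9.92% of all. A region near a pair can be reached through either start, which by itself raises the chance that such genes are included. Over the 608 regions the median of the mean SMC1A percentile was 62.5 and of the mean CTCF percentile 57.5, against 56.7 and 53.3 over the other 3484 regions. Without Satb1 KO CTCF replicate 2 the CTCF medians were 62.7 and 57.5. The median of the mean summit position was -34.8 bp over the paired starts and -81 bp over the others.

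The promoters were rich in CpG. A window was found for 4051 starts of the set, and it is compared with the 14580 windows of genes with no region and with all 20084 windows. Median GC content was 62% in the set, 54% in genes without a region and 57% in all. The observed over expected CpG ratio had medians of 0.818, 0.394 and 0.586 in the same order, and 85.2%, 35.7% and 48.9% of windows had a ratio of at least 0.6, a usual mark of CpG islands. The regions of the set with a ratio under 0.6 numbered 605, and their median SMC1A percentile was 46.3 against 59.8 for the rest.

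Short motifs of promoter factors were counted next. Each was searched on both strands of the same 300-base windows, and a match is a description of letters, not of a bound site. CCGGAAG (ETS family) was in 22.8% of windows of the set, 7.65% of those without a region and 11.9% of all. GGGCGGG (SP and KLF factors) was in 54.8%, 27.9% and 34.5%, and CCAAT (NFY) in 46.8%, 35.6% and 38.1%. AANATGGCG (YY1) was in 6.25%, 1.93% and 3.12%, GCGCATGCG (NRF1) in 4.64%, 1.56% and 2.38%, TGACGTCA (CREB) in 4.27%, 1.59% and 2.30%, and ACTACANTT (ZNF143) in 3.26%, 1.37% and 1.87%. TATAAA went the other way, in 5.55%, 15.4% and 12.7%. TGTGGTTT (RUNX factors) was in 0.815%, 1.95% and 1.65%, and CTTTGATC (TCF and LEF factors) in 0.741%, 0.926% and 0.871%. The 7 motifs given first were more frequent in the set than in windows without a region, and the TATA, RUNX and TCF/LEF letters less frequent. Base composition differs between the groups, and its part in these shares was not tested.

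The CTCF core was found in few of the promoter windows. It was in 3.73% of windows of the set, 2.01% of windows without a region and 2.39% of all, and the looser core in 15.0%, 8.51% and 10.1%. The windows cover 300 bases of regions with a median width of 1425 bp, so this share says nothing about the rest of each region, and no match says nothing about CTCF itself. The set is called by its rule here, and not as a set of CTCF motif sites.

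The regions with a core were also placed in the order of each library, as a description chosen after the values were seen. The 152 regions with a core were compared with 3475 regions whose windows held not even the looser one. In the 4 SMC1A libraries the median percentile differed by 0.44, -3.56, -1.22 and 0 points (mean -1.08, SD 1.79, n = 4). In the 3 CTCF libraries it was higher by 14.9, 10.6 and 11.9 points (mean 12.47, SD 2.22, n = 3), so the values of the antibodies did not overlap. Over all 7 libraries the mean difference was 4.73 points (SD 7.47; exact two-sided sign-flip permutation p = 0.219). The CTCF mean exceeded the SMC1A mean by 13.6 points, by 8.44 points with the looser core and by 13.8 points without Satb1 KO CTCF replicate 2. No test of this contrast between antibodies is given. The 3 CTCF libraries include both genotypes.

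Of these regions, 151 had exactly 1 core, 97 on the strand of the gene and 54 on the other, at a median of -84.5 bp from the start. SMC1A summits were placed against the mean CTCF summit, with positive values in the direction of the GGC end of the core. The medians were 17, 5.67, 10.7 and 9.33 bp in WT 1, WT 2, KO 1 and KO 2 (mean 10.7, SD 4.72, n = 4; exact sign-flip permutation p = 0.125, the smallest possible). It was 7.62 bp against the mean of the other 2 CTCF libraries, without Satb1 KO CTCF replicate 2. The direction did not hold with the looser core, at a mean of -1.17 bp (exact permutation p = 0.25). Single regions scattered far more than these medians. At Ndufa6 the SMC1A summits lay -24.5, -31.5, -29.5 and -5.5 bp from the core and the CTCF summits -0.5, -10.5 and -10.5 bp, whereas at Myh9 the SMC1A summits lay -113.5, -64.5, -162.5 and -114.5 bp from it.

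The strongest regions were near the top of every list. They were ranked by their lowest percentile over the 7 lists, which describes the same values that chose the set and is given without a test. Dnpep was first, with SMC1A folds of 64.8 and 69.0 in WT and 66.0 and 51.4 in KO, and CTCF folds of 56.4 in WT and 136 and 21.97 in KO. Its lowest percentile was 99.69. Rrp9 followed, with SMC1A folds of 58.5 and 66.1 in WT and 83.8 and 55.8 in KO. Neither gene showed SMC1A folds that separated the genotypes. The next in order were Khsrp (an RNA-binding protein of splicing and RNA decay), Map3k3 (a kinase of MAPK cascades), Tedc1, Xpo1 (the nuclear export receptor), Napa (of membrane fusion), Pip5k1c (a phosphoinositide kinase), Samd4b and Bcl2l1. Bcl2l1 encodes Bcl-xL, a survival protein of DP thymocytes, and had the highest SMC1A folds of the 10, at 100.4 and 96.2 in WT and 94.5 and 78.5 in KO. Its CTCF folds were 51.7 in WT and 81.1 and 18.2 in KO, and its summits lay inside the gene, 184 to 357 bp downstream of the start. None of the 10 windows held the CTCF core, and 1 of them, Samd4b, held the looser one.

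The weakest regions had a peak in every list but stayed low in each. At Ctsl (cathepsin L, a lysosomal protease) SMC1A folds were 5.02 and 3.93 in WT and 4.14 and 4.75 in KO, from 7 to 10 reads at the summit. H2-Q4, a non-classical class I histocompatibility gene, did not exceed a percentile of 10.4, and Sppl2a, an intramembrane protease, did not exceed 11.0. The widest merged regions were those of Zfp36 (7964 bp, encoding an RNA decay factor), Tgif1 (7081 bp, a homeodomain repressor) and Pip5k1c (6602 bp). The summits of the lists lay at -7534 to -3538 bp from the start at Zfp36 and at -3022 to 2588 bp at Tgif1, so they did not mark a single promoter site. Width and strength did not go together among these, since Tgif1 stood at SMC1A percentiles of 29.4 and 52.4 in WT and 26.8 and 19.7 in KO while Pip5k1c was above 99.0 throughout.

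Most splicing, ribosomal protein, histone and survival genes had a region at a start. Shares below are of list genes with a known start, beside 28.1% for all genes, and are counts without a test. Splicing genes had a region at 49 of 59 genes (83.1%), and these stood at a median SMC1A percentile of 65.4, against 57.5 for the whole set. Hnrnpl, an RNA-binding splicing regulator, stood at SMC1A percentiles of 98.0 and 98.9 in WT and 99.0 and 97.7 in KO. Ribosomal protein genes had one at 44 of 58 (75.9%), with a median SMC1A percentile of 51.9 and a CTCF percentile of 58.5 (53.7 for the whole set). Without Satb1 KO CTCF replicate 2 these CTCF medians were 56.7 and 58.4. Histone genes had one at 52 of 71 (73.2%), which shared 32 regions because several start close together. Housekeeping reference genes such as Gapdh and Ppia had one at 9 of 10, and the exception was Gusb. Apoptosis and survival genes had one at 11 of 15 (73.3%), among them Bcl2l1, Bcl2 and Mcl1, which protect cells, and Trp53, Bbc3 and Bcl2l11, which promote death. The medians of their 12 regions were 57.5 for SMC1A and 45.6 for CTCF, or 57.5 for CTCF without Satb1 KO CTCF replicate 2.

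Other broadly expressed groups lay above the share of all genes too. RNA polymerase and Mediator genes had a region at 29 of 46 genes (63.0%), translation factors at 32 of 53 (60.4%), respiratory chain genes at 51 of 86 (59.3%) and proteasome genes at 23 of 39 (59.0%). Cell cycle kinases and cyclins had one at 30 of 51 (58.8%), chromatin modifiers at 40 of 70 (57.1%), tRNA synthetases at 13 of 24 (54.2%) and mitochondrial ribosomal proteins at 36 of 69 (52.2%). Zfp zinc finger genes, at 103 of 325 (31.7%), and ubiquitin ligase and protease genes, at 59 of 187 (31.6%), were close to all genes, and solute carriers, at 59 of 282 (20.9%), lay below. Kat6b, a histone acetyltransferase, and Hdac4, a deacetylase, were among the strongest chromatin genes, with percentiles of at least 96.9 in every list.

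Genes that make and regulate cohesin were themselves well represented. Of 27 cohesin, CTCF and nuclear architecture genes, 19 (70.4%) had a region, and the median SMC1A and CTCF percentiles of their 20 regions were 79.3 and 71.9, the latter 73.7 without Satb1 KO CTCF replicate 2. They included Smc3 (the partner of SMC1A in the ring), Stag1 (a cohesin subunit) and Mau2 (of the loader). Wapl (which releases cohesin) and Pds5a and Pds5b (regulators of cohesin) were also among them. Ctcf stood at SMC1A percentiles of 80.8 and 76.4 in WT and 88.1 and 72.6 in KO, and at CTCF percentiles of 71.6, 73.5 and 73.4. Zfp143 and Maz, which encode factors reported at CTCF sites and promoters, stood at 94.5 or more in all lists. DNA repair and replication genes had a region at 22 of 32 genes (68.8%), with Pold1, a polymerase subunit, at 94.5 or more.

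**Figure D3:**
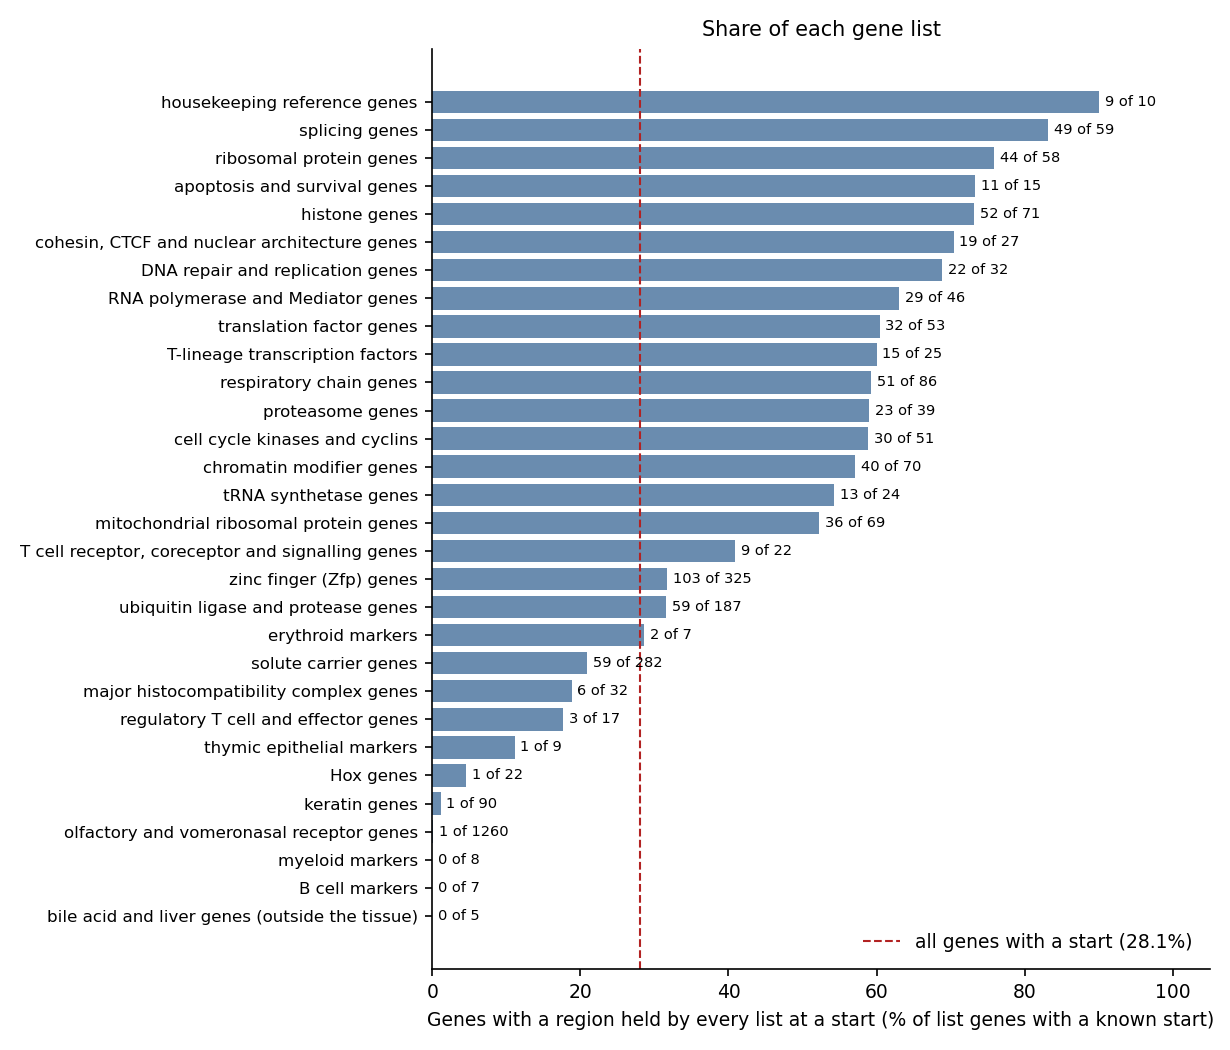
Percent of the genes of each list, among those with a known start, that have one of the 4092 regions at a start. Bars are labelled with the counts, and the dashed line marks all genes (28.1%). Splicing, ribosomal protein and histone genes lie well to the right of the line, and olfactory, keratin, B cell, myeloid and liver genes lie near 0.

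Several gene families had few regions. Olfactory and vomeronasal receptors had a region at 1 of 1260 genes (Vmn2r29), Hox genes at 1 of 22 (Hoxa7, at percentiles of 0.31 to 19.7), and histocompatibility genes at 6 of 32. The single hit of the keratin list was Krtcap2, which is not a keratin. Markers of other cells that a thymus sort could carry were counted too. B cell markers had a region at 0 of 7 genes, myeloid markers at 0 of 8 and thymic epithelial markers at 1 of 9 (Ccl25). The Ccl25 region is shared with Elavl1, whose start is the nearer to its mean summit. Erythroid markers had a region at 2 of 7 genes (Tfrc, the transferrin receptor of dividing cells, and Klf1). A start without a region can still hold a peak in up to 6 lists, so these counts are not an absence of binding.

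T-lineage genes formed part of the set and stood lower in the CTCF lists than in the SMC1A lists. Transcription factors of the lineage had a region at 15 of 25 genes (60.0%). They were Bcl11b, Egr2, Runx1, Id2, Bcl6, Myb, Gata3, Foxp1, Tcf3, Notch1, Nr4a1, Id3, Zbtb1, Cbfb and Satb1. Tcf7, Lef1, Ikzf1, Zbtb7b and 6 other genes of the list had none. Over their 19 regions the median SMC1A percentile was 57.5 and the median CTCF percentile 27.7. Receptor and signalling genes had a region at 9 of 22 genes (40.9%), with medians of 52.8 and 24.04 over 10 regions. Among them were Cd3e (a chain of the receptor complex), Lck and Fyn (its kinases), Lat (its adaptor) and Rasgrp1. Over the whole set the median SMC1A and CTCF percentiles were 57.5 and 53.7. Without Satb1 KO CTCF replicate 2 the CTCF medians were 27.6 for factors, 25.02 for receptor and signalling genes and 58.4 for the whole set.

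This order was counted region by region. A region was called SMC1A above CTCF if its percentile in each of the 4 SMC1A lists exceeded that in each of the 3 CTCF lists, and the reverse likewise. Of the 4092 regions, 467 (11.4%) were SMC1A above CTCF, beside 9.43% of all 9841 regions held by every list. CTCF above SMC1A were 306 (7.48%), beside 10.4% of the same 9841. Among the T-lineage factor regions 10 of 19 were SMC1A above CTCF and 0 the reverse, and among receptor and signalling regions 5 of 10 and 0. Of 44 ribosomal protein regions 1 was SMC1A above CTCF, 8 were the reverse and the others showed neither order. Without Satb1 KO CTCF replicate 2 the counts over the set were 587 (14.3%, beside 14% of the 9841) and 562 (13.7%, beside 15.1%), those of ribosomal protein genes 5 and 11, those of the factors 10 and 0, and those of receptor and signalling genes 6 and 0. The rule for this order was chosen after the values were seen, and the groups were not tested against each other.

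Single genes show the size of this order. At Id2, an inhibitor of E proteins, SMC1A percentiles were 87.6 and 72.9 in WT and 87.7 and 59.1 in KO, and CTCF percentiles were 46.9, 24.7 and 23.7. At Satb1 itself 2 regions qualified. The region chr17:51830824-51833975 stood at SMC1A percentiles of 51.6 and 60.0 in WT and 44.3 and 42.9 in KO, and at 6.06 in WT CTCF and 5.12 and 0.21 in KO CTCF. The region chr17:51826280-51826996 stood at 39.2 and 53.8 in WT and 20.3 and 49.5 in KO for SMC1A, and at 0.51, 4.24 and 14.8 for CTCF. The order was met at 10 of the 19 T-lineage factor regions and not at the others. Bcl11b, a factor of T cell commitment, did not meet it. Its SMC1A percentiles were 84.3 and 89.3 in WT and 89.4 and 93.6 in KO, and its CTCF percentiles 75.6, 91.8 and 77.9. Egr2 did not meet it either, at 27.3 and 43.25 in WT and 66.6 and 59.1 in KO for SMC1A. Its CTCF percentiles were 40.4, 62.7 and 59.1. Klf2 and Tnfaip3, from the effector list of which 3 of 17 genes had a region, were SMC1A above CTCF. Klf2, a factor of thymocyte exit, stood at 92.4 and 95.0 in WT and 90.3 and 92.1 in KO for SMC1A, against 68.1, 79.1 and 79.0 for CTCF.

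The regions with the widest gaps came from other kinds of gene. At Atp5pb, a subunit of ATP synthase, SMC1A folds were 13.3 and 13.9 in WT and 19.3 and 10.8 in KO, and percentiles 65.2 to 83.6. Its CTCF percentiles were 14.8 in WT and 12.8 and 0.68 in KO. Dusp5, a phosphatase of ERK, stood at 95.9, 96.6, 88.6 and 89.1 for SMC1A and at 39.3, 47.0 and 12.1 for CTCF. Psmd5, Zfp821, Camk2d and Gm10840 completed the first 6 in this direction. The reverse was led by Nipsnap2, at SMC1A percentiles of 35.97 and 22.1 in WT and 2.27 and 21.0 in KO and CTCF percentiles of 93.5, 91.0 and 96.7. Uchl3 (a ubiquitin hydrolase), Med4 (of Mediator), Psmd6 (of the proteasome), Agfg1 and Rev1 (a translesion polymerase) followed. Agfg1 held the CTCF core and stood at CTCF percentiles of 93.2, 82.3 and 83.5, with SMC1A folds of 5.56 and 7.14 in WT and 9.22 and 7.61 in KO. Over the groups, 11.1% of the 306 regions with CTCF above SMC1A held the core and 33.0% the looser one, against 2.78% and 16.5% of the 467 with SMC1A above CTCF and 3.16% and 13.2% of the rest. Without Satb1 KO CTCF replicate 2 the shares were 8.36% and 25.6% of 562 regions, 2.73% and 15.3% of 587, and 3.02% and 13% of the rest.

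The median SMC1A rank of the set was slightly lower in KO than in WT in both pairs of libraries with the same replicate number. The question was whether the rank of SMC1A signal at these promoters differed between the genotypes. Since a member holds a peak in all libraries, regions that lost or gained a peak outright could not be in the set, and a low number of calls follows in part from the rule. Percentiles were here taken over the 11877 regions that held a peak of all 4 SMC1A lists. The median percentile of the 4092 regions was 67.5 and 66.1 in WT and 65.9 and 64.0 in KO. The KO minus WT difference was -1.84 points, at -1.56 between the replicates numbered 1 and -2.11 between those numbered 2. The 2 KO libraries lay below the 2 WT libraries (exact two-sided permutation p = 0.333, the smallest that 2 against 2 libraries allow). With the replicate number as a block the exact permutation p was 0.5, the smallest that 2 pairs allow. The difference was -0.88 without KO replicate 2, -1.16 without WT replicate 1, -2.52 without WT replicate 2 and -2.79 without KO replicate 1. For the regions of all 4 SMC1A lists outside the set it was 1.06 points. Percentiles are relative, so these values do not show whether SMC1A signal fell at the promoters or rose elsewhere. For CTCF, among regions of all 3 CTCF lists, the median percentile was 74.7 in WT and 73.8 and 59.4 in KO, with a single WT library and no test.

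Region by region, 1 promoter region was higher in KO and 0 were lower at an adjusted p under 0.05 (limma on normal scores of the ranks, Benjamini-Hochberg over 11877 regions), beside 0.0421% of all regions tested called higher and 0% called lower. At an unadjusted p under 0.05 there were 154 higher and 214 lower regions, together 8.99% of the set beside 10.7% of all regions. With the replicate number as a block, 6 were higher and 4 lower, of 43 and 22 in all. The sample titles give a replicate number and name no batch. The median absolute difference in score was 0.31 in the set and 0.40 in the other regions tested. The share of calls in the set was therefore no larger than among all regions.

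The region called higher lies in Fbxo27, which encodes an F-box protein of a ubiquitin ligase, at chr7:28693335-28694559. Its SMC1A folds were 5.39 and 5.84 in WT and 19.2 and 22.1 in KO, from 14 and 10 reads at the summit in WT and 59 and 40 in KO. The genotypes did not overlap. The score difference was 2.49 (SE 0.42, adjusted p = 0.0377 by limma, higher in both KO libraries; 0.00049 with the block). CTCF folds there were 6.33 in WT and 31.8 and 6.86 in KO, or percentiles of 8.26, 79.5 and 73.1 among the 9841 regions of every list. The summits of the 7 lists lay 652 to 731 bp downstream of the start, unlike most of the set. The call was lost without WT replicate 1 (adjusted p = 0.17), WT replicate 2 (0.0843) or KO replicate 2 (0.168), with the difference at 2.17 to 2.61.

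The other regions called only with the block lay in both directions, and their percentiles are again among the 9841 regions. Gm5148 stood at SMC1A percentiles of 1.23 and 22.7 in WT and 93.8 and 79.7 in KO (limma adjusted p = 0.0803, 0.00162 with the block). Zfp473 (a zinc finger gene) stood at 57.6 and 24.8 in WT and 89.7 and 92.8 in KO (0.127, and 0.00978 with the block). Mycn, a MYC family factor, stood at 41.3 and 46.6 in WT and 92.2 and 84.7 in KO, with the 7 summits upstream of a start that the region covers. Ifngr1, the interferon gamma receptor, and Phlpp1, a phosphatase of AKT, were the others higher in KO. Nus1 (of dolichol synthesis) stood at 89.9 and 90.3 in WT and 31.9 and 43.9 in KO (0.116, and 0.0157 with the block). Med11, of Mediator, stood at 74.5 and 87.0 in WT and 3.40 and 20.5 in KO, and Helb, a DNA helicase, at 80.7 and 67.5 in WT and 20.8 and 1.10 in KO. The last of the lower regions called was C87436. Cdk2ap2, next by p, stood at 88.7 and 94.4 in WT and 61.2 and 60.5 in KO (limma adjusted p = 0.201).

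**Figure D4:**
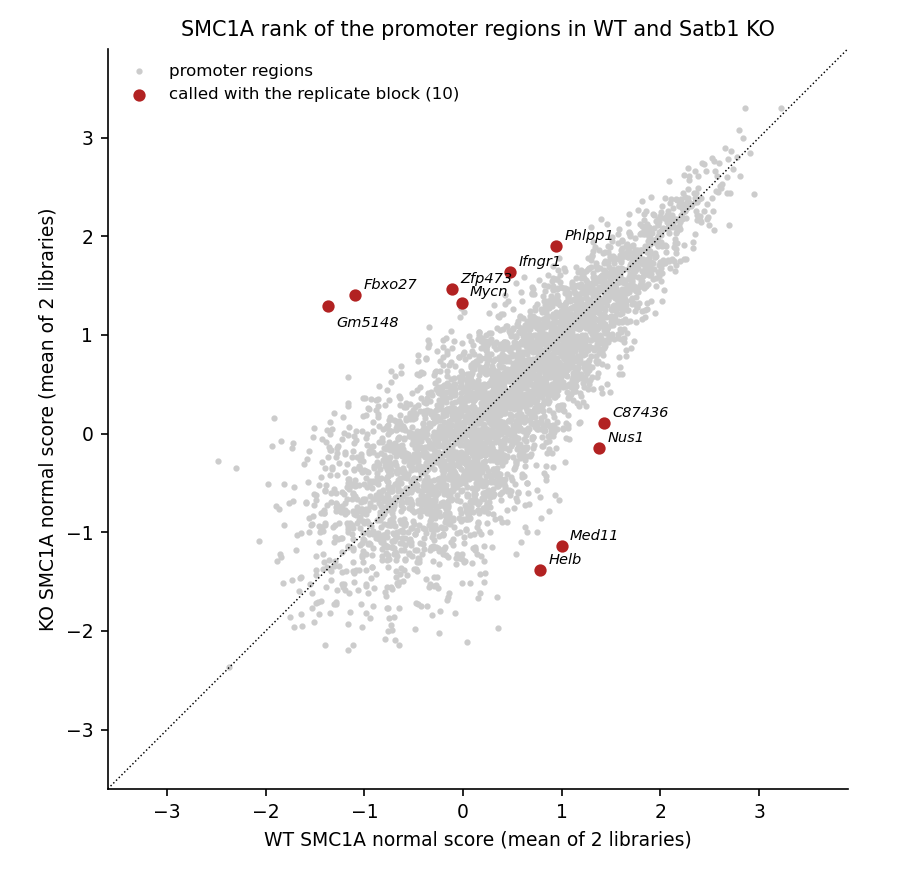
Normal score of the SMC1A rank of each of the 4092 promoter regions, as the mean of 2 WT libraries (x) and 2 Satb1 KO libraries (y); the dotted line marks equal scores. The 10 regions called with the replicate block are named: 6 lie above the line, Fbxo27 and Gm5148 furthest, and 4 below it.

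Of 9 genes stated by name under the rule for naming, Satb1, Ctcf, Bcl6 and Runx1 had a region and Rag1, of receptor gene recombination, had a start held by 6 lists. Bcl6, a repressor, had 2 regions, and the one at chr16:23981725-23988028 stood at SMC1A percentiles of 82.7 and 81.6 in WT and 76.2 and 82.8 in KO. Runx1 had 2 as well, and the one at chr16:92824556-92826609 stood at SMC1A percentiles of 67.8 and 52.6 in WT and 61.7 and 62.7 in KO and CTCF percentiles of 26.0, 29.1 and 38.2. The KO minus WT score differences of these Bcl6 and Runx1 regions were -0.08 (SE 0.27) and 0.06 (SE 0.36), smaller than their errors. Rad21, Myc, Cd4 and Ets1 were not analysed here.

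By chromosome, between 18.4% (chromosome 14) and 34.9% (chromosome 11) of genes with a known start had a region, and no start on chromosome 18 was used here. Over the 4092 regions the SMC1A libraries had rank correlations of 0.754 to 0.811 with each other. The 2 WT libraries correlated at 0.811, the 2 KO libraries at 0.809, and pairs of 1 WT and 1 KO library at 0.754 to 0.791. These are correlations across regions, which are not independent replicates, and they share depth and base composition.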

How the data were processed

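The regions, gene lists and motifs were chosen with earlier results of these data known. Reads were processed by the submitters with Trimmomatic 1.24, Bowtie2, SAMtools, deepTools, MACS2 and R 4.12 on mm10, per the submitters' processing notes. The settings and any control sample of the peak caller: not given in the sources used here. Files are narrowPeak lists, 1 per library, with the authors' fold enrichment (a ratio), deposited −log10 p and −log10 q values, and the summit offset. They hold no read counts, so no count model was used, and the lowest −log10 q was 1.303.

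Groups follow the genotype and antibody in the labels. A region takes the fold, summit and width of the highest peak of each list. Starts come from the RefSeq promoter table (GRCm38.p6), which held 20084 starts of 16456 of the 20661 protein-coding genes on chromosomes 1 to 19. Exons are not in that table, so exonic or intronic position is not stated. Reads at a summit were solved as the whole pile-up that meets the deposited fold and p-value within 0.001, which succeeded for all 4092 regions in 6 libraries and for 99.88% in Satb1 KO CTCF replicate 1.

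SMC1A ranks of 11877 regions were turned into normal scores and fitted with limma 3.58.1 (R 4.3.3, mean-variance trend, Benjamini-Hochberg, threshold 0.05). Single values per library were tested with exact permutation tests in Python 3.11.15. Nothing in the labels ties replicates to separate mice, so p-values measure only the spread between these libraries. The block pairs libraries by replicate number, and the titles do not say that equal numbers share a batch. Same-numbered deviations had a correlation of 0.0228 over the 11877 regions. The fit was also run on simulated scores with independent noise in each library, and the outcome is not given here. Such scores hold no batch effect, so that run does not show how the fit behaves if libraries share one.

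Named regions follow a rule: the 10 with the highest lowest percentile, the 3 with the lowest highest percentile, the 5 of lowest p per direction, up to 4 per gene list, the 3 widest, those next to the 1000 bp limit, and 9 stated genes. Further genes of a list are named to give its members, and the 6 with the widest gap between antibodies in each direction were chosen after their values were seen. Alternatives were −log10 q of 5 or more, summits within 200 bp, other distances and starts, other scales, the looser core, a replicate block, and leaving out each replicate.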

Additional observations from a re-analysis of the deposited data

How the results depend on the processing

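The number of regions was 2396 when the summits of the lists also had to lie within 200 bp of each other, 4886 when either end of genes outside the start table counted as a start, and 2981 with only peaks of −log10 q of 5 or more. Members called higher and lower for SMC1A (KO against WT) were 1 and 0, of 5 and 0 over all regions tested. With the replicate block, whose pairing comes from the replicate number, they were 6 and 4, of 43 and 22. The block changed no call of the median percentile. On centred log2 fold they were 3 and 4, of 21 and 28 over all regions tested, and on ranks of −log10 q 3 and 2, of 17 and 25. Over regions of all 7 lists they were 0 and 0, of 1 and 0, and with −log10 q of 5 or more 0 and 0, of 3 and 1. Leaving out a replicate gave 0 to 3 higher and 0 to 11 lower, the highest of both without KO SMC1A replicate 2 (7 lower without KO SMC1A replicate 1); the lone sample is then assumed to vary like the others. Where fits with a replicate left out called regions, most of these lay outside the set. The share of calls in the set was no larger there than among all regions tested. The Fbxo27 adjusted p over regions of all 7 lists was 0.0599. The percentile difference from other regions ranged from 12.47 to 16.8 and the log2 width ratio from 0.29 to 0.37 over the libraries left out. The core share was 15.0% with the looser core, with which the summit offset reversed to -1.17 bp, and the difference between antibodies by core ranged from 12.3 to 14.5 over the libraries left out. Regions with CTCF above SMC1A numbered 562 without KO CTCF replicate 2. The causes were not tested. Of 112 alternatives computed, 62 kept direction and side of the threshold (counts: within 1.5 times) and 1 reversed. Depth limits single regions: a median of 16 to 27 SMC1A reads at the summit.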
